A study of Mus musculus with 6 samples.

Results

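The mitochondrial genes mt-Cytb and mt-Tt are described here from forward-strand base depth in small RNA libraries of mouse pancreatic islets. They are 2 of the 37 genes of the mitochondrial chromosome and were chosen as neighbours on the forward strand. mt-Cytb (ENSMUSG00000064370.1, chrM 14145 to 15288, GRCm38) is a protein-coding gene of 1144 nt without introns. mt-Tt (ENSMUSG00000064371.1, chrM 15289 to 15355) is a tRNA gene of 67 nt whose first base follows the last base of mt-Cytb directly.

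The islets came from mice kept on a high-fat diet for 14 weeks, 3 of genotype Mrpp3WT (wild type) and 3 of genotype Mrpp3N434S (mutant), with 1 library each. Both genotypes received the diet, and neither strain nor age is given in the sources used here. The files hold mitochondrial counts only, so neither the Mrpp3 genotype, which is nuclear, nor the identity of the islet tissue could be checked against genes. In such bulk samples, fewer cells of a type and less RNA per cell cannot be told apart.

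mt-Cytb encodes cytochrome b, the mitochondrially encoded subunit of respiratory complex III. mt-Tt encodes the threonine tRNA. Both are copied as part of long precursor transcripts, in which tRNAs punctuate the mRNAs. MRPP3 is the catalytic protein of RNase P in mitochondria, which cuts the 5′ side of tRNAs, and the nuclease ELAC2 cuts the 3′ side. Because the 2 genes touch, the cut that makes the 5′ end of mt-Tt also makes the 3′ end of the mt-Cytb mRNA. No tRNA of the same strand directly precedes mt-Cytb. On the opposite strand its start is preceded by mt-Te, the glutamate tRNA (14071 to 14139), and mt-Tt is followed by mt-Tp, the proline tRNA (15356 to 15422).

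The sequences on which the results turn are the ends of both genes, the tRNA and the highest peaks of mt-Cytb, all on the forward strand of GRCm38. In the first, capitals mark base 9 of mt-Tt, its base 29 and the 3 genome bases that follow the gene. The anticodon is the tgt at bases 31 to 33. In the second, capitals mark the start codon, and in the third the first base of mt-Tt. In the peaks, the 11 nt around the summit are in capitals.
mt-Tt with 3 following bases, chrM:15289-15358: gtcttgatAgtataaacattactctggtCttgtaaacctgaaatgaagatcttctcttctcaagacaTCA
mt-Cytb start, chrM:14120-14179: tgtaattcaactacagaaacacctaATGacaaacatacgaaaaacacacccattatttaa
mt-Cytb to mt-Tt, chrM:15259-15318: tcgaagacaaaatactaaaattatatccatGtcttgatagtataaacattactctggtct
mt-Cytb highest peak, chrM:14348-14461: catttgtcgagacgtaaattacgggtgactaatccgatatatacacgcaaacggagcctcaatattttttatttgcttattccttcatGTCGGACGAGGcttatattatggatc
mt-Cytb peak near the 3′ end, chrM:15111-15218: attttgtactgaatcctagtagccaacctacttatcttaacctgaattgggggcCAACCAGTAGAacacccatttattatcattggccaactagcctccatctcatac

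The mt-Cytb gene ends in T and its length is 1 base more than a multiple of 3. Like several mitochondrial mRNAs, it is known to gain the rest of its stop codon from the poly(A) tail. The GC content was 39.1% for mt-Cytb and 34.3% for mt-Tt. The genome bases given in the deposited files differed from the reference at 0 positions of either gene.

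The summed base depth over the mitochondrial chromosome ran from 3156761 to 4337052 in the wild-type libraries and from 5461367 to 10923311 in the mutant ones, so the groups did not overlap in depth. The highest depth over both strands was 7436, 7756 and 7498 in wild-type libraries, against 8000, 7998 and 7997 in mutant libraries. Whether the deposited counts were cut off at 8000 was not tested. With positions above 6000 left out, the log2 change between genotypes was 0.42 for mt-Cytb and -0.27 for mt-Tt. The scalings by library totals, rRNA and tRNA used below were not refitted that way. No library had a position above a depth of 8000. All of mt-Cytb and mt-Tt lay far below that value. Depth is given below either as counted, or scaled, which means divided by a library factor (trimmed mean of M values over the mitochondrial genes, 0.657 to 1.60) so that libraries can be compared. Triples of values are always in the order of replicate 1, 2 and 3.

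mt-Cytb had a mean depth of 30.9, 20.1 and 18.4 bases per position in wild-type libraries, against 78.6, 31.5 and 31.3 in mutant libraries. Mutant replicate 1, the deepest library, was the highest. The gene took 0.604% to 0.823% of all mitochondrial base depth. Over the 6 libraries its scaled depth per position ranked 8 of the 13 protein-coding genes, at 33.2, against 117 in mt-Co2, the highest, which encodes a subunit of cytochrome c oxidase. The scaled depth of mt-Tt was 48.3, which ranked 8 of the 14 forward-strand tRNA genes. Its unscaled means were 74.9, 30.1 and 27.0 in wild-type libraries, against 71.3, 36.4 and 53.1 in mutant libraries.

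Depth along mt-Cytb was uneven, and the same high and low stretches appeared in each library. Its highest scaled depth was 6.01 times its median, which ranked 4 of the 13 protein-coding genes (range 1.96 to 11.3, median 5.0). Across its 1144 positions, Pearson's r between the profiles of any pair of libraries was 0.942 to 0.985. These positions share reads and base composition, so the values describe likeness only.

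**Figure D1:**
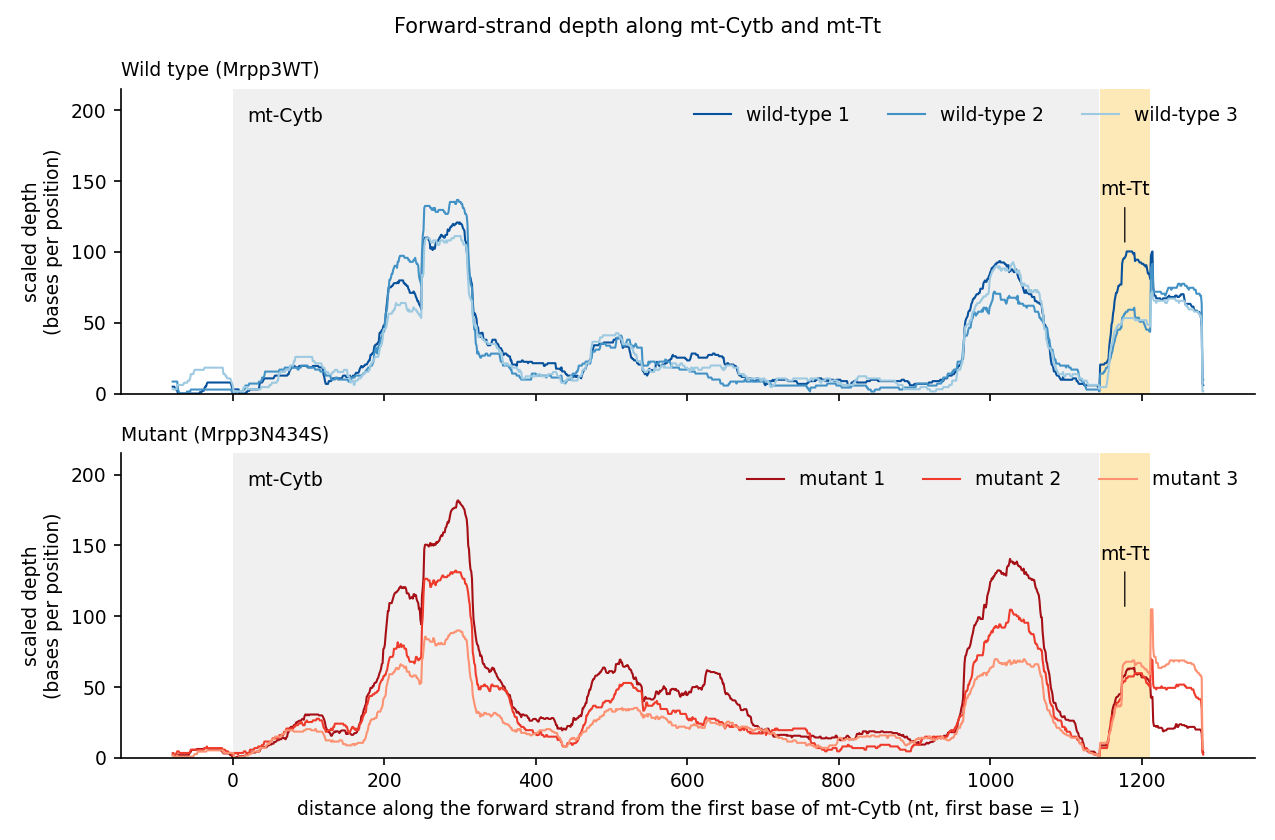
Scaled forward-strand depth (vertical axis, bases per position) against distance in nt from the first base of mt-Cytb, with the wild-type libraries in the upper panel and the mutant libraries in the lower one, 1 line per library; grey marks mt-Cytb and yellow mt-Tt. Each library shows its highest mt-Cytb peak near base 297 and another near base 1026, with little depth at either end of the gene.

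Peaks were positions at least 2 times the median of the gene and highest within 25 nt, and each extended to 0.5 of its height. There were 4 of them. The highest had its summit at base 297 (14441), where the depth was 124, 97 and 73 in wild-type libraries, against 291, 114 and 102 in mutant libraries. Scaled, the wild-type summits averaged 123 ± 12.9 and the mutant ones 134 ± 46 (SD, n = 3), and they overlapped. Taken by library, the summit fell between 14437 and 14441. Its left side was steep. At base 250 (14394), depth rose by 33, 17 and 20 in wild-type libraries, against 32, 19 and 18 in mutant libraries, the largest rise in the gene. A further rise followed at base 253, by 9, 11 and 12 against 32, 9 and 6. On the right, the largest fall came at base 317 (14461), by 12, 13 and 7 in wild-type libraries, against 27, 15 and 10 in mutant libraries. The extent of this peak, bases 204 to 317, holds these steps as well as a shoulder with its own summit at base 222 (14366), 3.97 times the median.

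The next peak lay near the 3′ end of the gene, with its summit at base 1026 (15170) and an extent from base 967 to 1074. Depth at the summit was 90, 48 and 58 in wild-type libraries, against 225, 91 and 78 in mutant libraries. Scaled, this was 81.2 ± 11.8 and 104.6 ± 35.9 (SD, n = 3), and the groups overlapped. Its summit was less fixed than that of the highest peak, from 15149 to 15174 by library. Depth rose at bases 965 and 966 in each library, by 7.81 and 7.59 scaled bases on average. The lowest of the 4 peaks, at base 511 (14655, chrM 14610 to 14792), was 2.15 times the median, just above the limit of 2. Its depth was 41, 29 and 26 in wild-type libraries, against 111, 45 and 39 in mutant libraries.

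Together the peaks covered 37.3% of the gene and held 65.5% to 74.9% of its depth. In the wild type the share was 73.0% ± 1.69 and in the mutant 68.4% ± 2.81 (SD, n = 3). Each mutant library lay below each wild-type library, at 71.1%, 68.8% and 65.5% against 71.9%, 74.9% and 72.1%. The exact two-sided permutation test gave p = 0.1, the smallest that 3 against 3 libraries allow, and adjusted over 4 shares p = 0.2. This difference of -4.55 points was -1.73 with the peaks taken down to 0.25 of their height (exact permutation p = 0.4) and -7.04 with peaks of at least 3 times the median. The shares are parts of 1 total, so they are not separate results. How often such shares separate the genotypes in other genes was not computed. The middle of the gene (bases 382 to 762) moved the other way. It held 22.2%, 18.9% and 21.4% of mt-Cytb depth in wild-type libraries, against 26.1%, 24.3% and 26.3% in mutant libraries, with no overlap (exact permutation p = 0.1, adjusted 0.2). Bases 1 to 381 held 48.3% ± 4.20 against 43.2% ± 2.49, and bases 763 to 1144 held 30.8% ± 2.60 and 31.2% ± 1.49 (SD, n = 3). Both of these overlapped (exact permutation p = 0.2 and 1). The difference over bases 1 to 381 was -5.10 points, and -2.68 without wild-type replicate 2.

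At the 5′ end of mt-Cytb almost no depth was found. On the forward strand opposite mt-Te the mean depth was 3.83, 1.68 and 9.26 in wild-type libraries, against 7.35, 4.81 and 3.78 in mutant libraries. At 14140, the first base after mt-Te, depth was 8, 2 and 7 in wild-type libraries, against 5, 3 and 4 in mutant libraries. At 14145, the first base of the gene, it was 3, 0 and 2 against 0, 2 and 4. With 0 to 4 bases per library, no difference between genotypes was detectable there. Of the 1144 positions of the gene, 9, 4 and 0 were at a depth of 0 in wild-type libraries, against 4, 0 and 7 in mutant libraries. The first 20 nt had a mean depth of 1.4, 1.55 and 1.65 in wild-type libraries, against 1.7, 3 and 1 in mutant libraries.

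Depth first reached the median of the gene at bases 82, 43 and 70 in wild-type libraries, against 96, 87 and 97 in mutant libraries. The mutant values were all higher than the wild-type ones, but the median itself differs between libraries, and this difference was not tested. Relative to the mean of the gene, the first 20 nt of mt-Cytb had 0.0575 of its scaled depth, the lowest of the 13 protein-coding genes. mt-Co3, which encodes another cytochrome c oxidase subunit, was next at 0.0715, and the median was 1.77. Protein-coding genes with high depth at their first bases included mt-Nd5 at 4.17 and mt-Nd2 at 4.16, both encoding subunits of complex I. The last 20 nt of mt-Cytb had 0.130, ranking 10 of 13 (median 0.191).

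The few bases read at the start codon did not all match the genome. With positions counted from 1 at the first base of mt-Cytb, T2A was read in 5 of 6 bases over all libraries (14146), 3 of them in wild-type replicate 1. G3A was read in 5 of 7 bases and C5A in 5 of 9 (14147 and 14149). With at most 3 bases per library at these positions, no comparison between genotypes was possible. Elsewhere in mt-Cytb, over the 1075 positions with at least 50 bases in all libraries together, the highest mismatch was 4.05%, at base 940. None reached 5%.

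RNA opposite mt-Cytb was sparse, with a mean depth of 1.15 to 1.54 in wild-type libraries, against 1.28 to 2.11 in mutant libraries. A stretch opposite bases 81 to 150 held 25.6% to 59.1% of it. There the opposite strand had a mean depth of 14.5, 12.1 and 9.31 in wild-type libraries, against 13.4, 6.36 and 6.33 in mutant libraries. The forward strand had 15.5, 10.6 and 13.4 against 39.2, 20.6 and 18.0 in the same bases. The opposite depth was lower than the forward depth in each mutant library and in wild-type replicates 1 and 3. This contrast was chosen after the values were seen and was not tested.

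mt-Cytb depth was not shown to differ between genotypes. Scaled depth was 30.1, 28.3 and 28 in wild-type libraries, against 49.1, 36.2 and 27.6 in mutant libraries. The mutant spread was wide and mutant replicate 3 lay below the wild type. The group values were 28.8 ± 1.13 and 37.6 ± 10.8 (SD, n = 3), a log2 change of 0.42 (SE 0.24, 95% interval -0.06 to 0.89, edgeR quasi-likelihood test, adjusted p = 0.197). Of the 34 genes with a mean depth of at least 10, 2 were called at an adjusted p of 0.05 (5.88%). Whether mt-Cytb passed depended on the scale and on 1 library. Scaled to the tRNA genes the change was 0.83 (edgeR adjusted p = 0.0146), and without mutant replicate 3 it was 0.61 (edgeR adjusted p = 0.0459). In these settings 12 and 11 of the 34 genes were called, against 2 in the main model. The median log2 change over all genes was 0.37 and -0.03 there. The change of mt-Cytb was 0.14 without mutant replicate 1, -0.013 by library totals and -0.28 scaled to the rRNA genes.

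Among the 13 protein-coding genes, 11 had a log2 change above 0 and none was called by edgeR, while 4 had an unadjusted p under 0.05. Over all 34 tested genes, 16 were above 0, 2 were called and 12 had an unadjusted edgeR p under 0.05. The median of the protein-coding genes was 0.42, against -0.03 over all 34 genes, and mt-Cytb was at 0.42 as well. On the scale of library totals the median of all genes moved to -0.43, and scaled to rRNA to -0.69. The genes whose scaled depth followed that of mt-Cytb most closely over the 6 libraries were mt-Co3 (Pearson r = 0.998 of log2 scaled depth, 0.5 added), mt-Atp6, which encodes a subunit of ATP synthase (0.946), and mt-Co2 (0.923). These libraries share their depth and scaling, and with 6 points the values are a description.

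**Figure D2:**
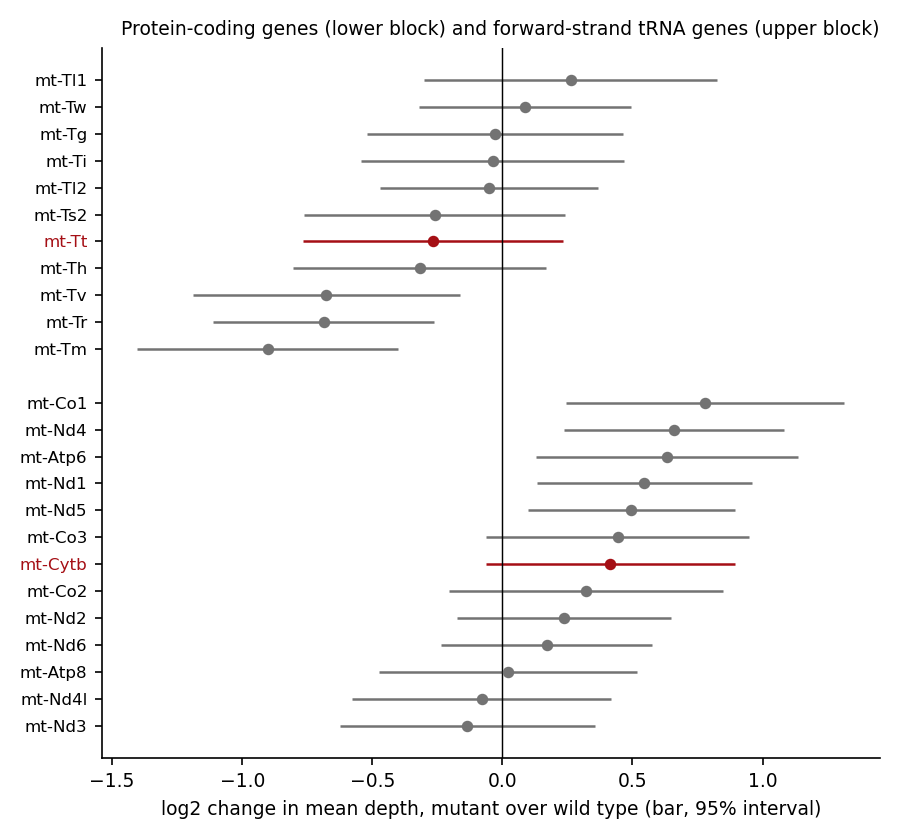
Log2 change in mean depth per gene (horizontal axis, mutant over wild type, edgeR with scaling over the mitochondrial genes, bars the 95% interval) for the 13 protein-coding genes and the 11 tested forward-strand tRNA genes, with mt-Cytb and mt-Tt in red. The interval of mt-Cytb runs from -0.06 to 0.89 and that of mt-Tt from -0.77 to 0.23, so both include 0.

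By windows of 50 nt, 4 of the 21 tested windows of mt-Cytb were called higher in the mutant and none lower. Over all genes, 89 of 257 tested windows were called (34.6%), and 33.9% were called higher, so the share in mt-Cytb was not above the background. Its tested windows had log2 changes from 0.08 to 1.06, all above 0, with a median of 0.53 against 0.61 over all tested windows. The zero of this scale comes from the genes, and most windows lie in long RNAs, so changes are read against that median. The edgeR p-values refer to a change of 0 and not to that median. Along the gene, the 4 called windows had 95% intervals of 0.18 to 1.46, 0.22 to 1.49, 0.36 to 1.76 and 0.24 to 1.85. All of these include 0.61, so no called window was shown to differ from the median of all tested windows. Neighbouring windows share reads.

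The called windows were next to each other, from base 551 to base 750, within the middle of the gene. At bases 651 to 700 the mean depth was 14.0, 5.84 and 9.18 in wild-type libraries, against 52.0, 17.3 and 24.7 in mutant libraries. Scaled, this was 12.0 ± 3.24 and 24.7 ± 6.78 (SD, n = 3), with no overlap (log2 1.06, SE 0.36, edgeR adjusted p = 0.0117). At bases 701 to 750 the scaled depth was 8.65, 6.17 and 9.29 in wild-type libraries, against 16.5, 19.5 and 14.3 in mutant libraries (log2 1.04, SE 0.41, edgeR adjusted p = 0.0365). These are among the low stretches of the gene, between the peaks. Unscaled, bases 701 to 750 had 8.88, 4.38 and 6.1 in wild-type libraries, against 26.48, 16.98 and 16.24 in mutant libraries. The minimum mean of 10 was taken on unscaled depth over all libraries. This window therefore reached it only through the deeper mutant libraries. So did the windows from base 751 to 950, where each wild-type library was also below 10. At bases 651 to 700 the mean of the 3 wild-type libraries lay below 10 as well. The edgeR calls at bases 651 to 750 are therefore given as description and not as support for a genotype difference. With no minimum depth, 4 windows of the genes described here were called as well (smallest edgeR adjusted p = 0.0129). The windows at bases 551 to 600 and 601 to 650 changed by 0.82 and 0.86 (edgeR adjusted p = 0.0388 and 0.0296). In the last of these the groups overlapped, with wild-type replicate 1 at 26.2 against 23.3 and 26.1 in mutant replicates 3 and 2. In 5 of the 21 windows each mutant library lay above each wild-type library, against 44.0% of all tested windows. None lay wholly below, against 2.72% of all. Among the 5 were bases 651 to 700, 701 to 750 and 901 to 950, which passed the depth limit only through the mutant libraries.

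Under the highest peak, bases 201 to 250 and 251 to 300 had log2 changes of 0.16 and 0.08 (95% intervals -0.46 to 0.77 and -0.52 to 0.69). The first and the last window, with scaled means of 3.29 to 6.90 and of 7.33 to 12.9, did not reach the mean depth of 10 and were not tested. The calls depended on the scale and on single libraries. There were 0 by library totals, with a smallest edgeR adjusted p of 0.0806, 0 by DESeq2 (smallest adjusted p = 0.0729) and 17 scaled to the tRNA genes. Of all 257 tested windows, 41, 71 and 188 were called in these settings, against 89 in the main model. Without wild-type replicate 1 or 3, or mutant replicate 1, 1 window was called. The count was 0 without wild-type replicate 2, 3 without mutant replicate 2 and 8 without mutant replicate 3.

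**Figure D3:**
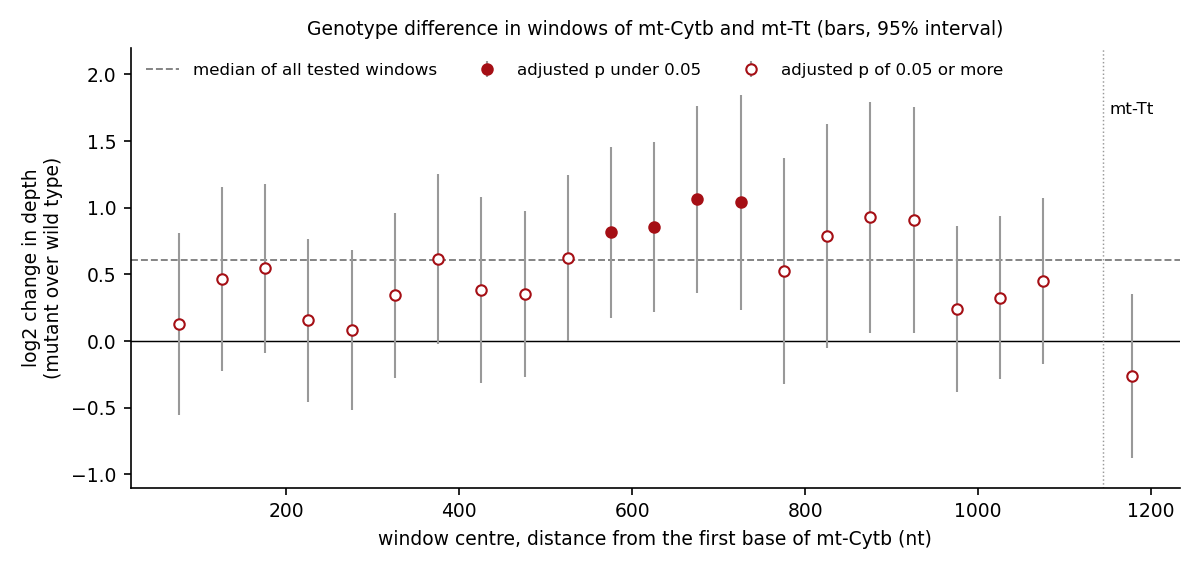
Log2 change in depth (vertical axis, mutant over wild type, bars the 95% interval) of each tested 50 nt window of mt-Cytb and of mt-Tt against the distance of the window's centre from the first base of mt-Cytb in nt; filled points have an edgeR adjusted p under 0.05. The 4 filled points span bases 551 to 750, and the dashed line is the median of all tested windows, 0.61, which the bars of these points include.

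At the junction, depth stepped up from mt-Cytb to mt-Tt. At 15288, the last base of mt-Cytb, depth was 3, 1 and 2 in wild-type libraries, against 2, 1 and 1 in mutant libraries. At 15289, the first base of mt-Tt, it was 21, 10 and 3 in wild-type libraries, against 13, 6 and 12 in mutant libraries. Each library rose, wild-type replicate 3 by a single base. No more than 3 bases per library at the start of the tRNA can belong to RNA that continues from mt-Cytb, since no more were read at the last base of mt-Cytb. Over the 10 nt on either side the ratio of depth before to depth after was 0.256, 0.173 and 1.19 in wild-type libraries, against 0.324, 0.333 and 0.200 in mutant libraries. The ratio above 1, in wild-type replicate 3, rests on means of 3.8 and 3.2.

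Neither this boundary nor the start of mt-Cytb reached a mean depth of 10 on both sides, so they had no test in the main model. Without that limit the log2 change of the ratio was -0.27 at the junction (edgeR adjusted p = 0.985) and -0.81 at the start of mt-Cytb (edgeR adjusted p = 0.891). Of the 41 boundaries tested over all genes, 1 was called (2.44%). A difference in 5′ cutting of mt-Tt was not detectable at this depth.

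Within mt-Tt, depth was low over the 5′ bases, rose through the middle and stayed high to the 3′ end. Over bases 1 to 9 it hardly moved, with means of 21.3, 10.8 and 3 in wild-type libraries, against 13.9, 6 and 12 in mutant libraries. It then climbed from base to base, to 79, 33 and 32 in wild-type libraries, against 73, 36 and 42 in mutant libraries at base 29. One base further, at base 30 (15318), it stepped to 94, 38 and 34 against 89, 46 and 68. On average this was the largest rise inside the gene. It was seen in all 6 libraries, from 2 bases in wild-type replicate 3 to 26 in mutant replicate 3. Over bases 30 to 67 the mean depth was 96.5, 37.7 and 34.1 in wild-type libraries, against 94.4, 49.1 and 74.2 in mutant libraries.

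**Figure D4:**
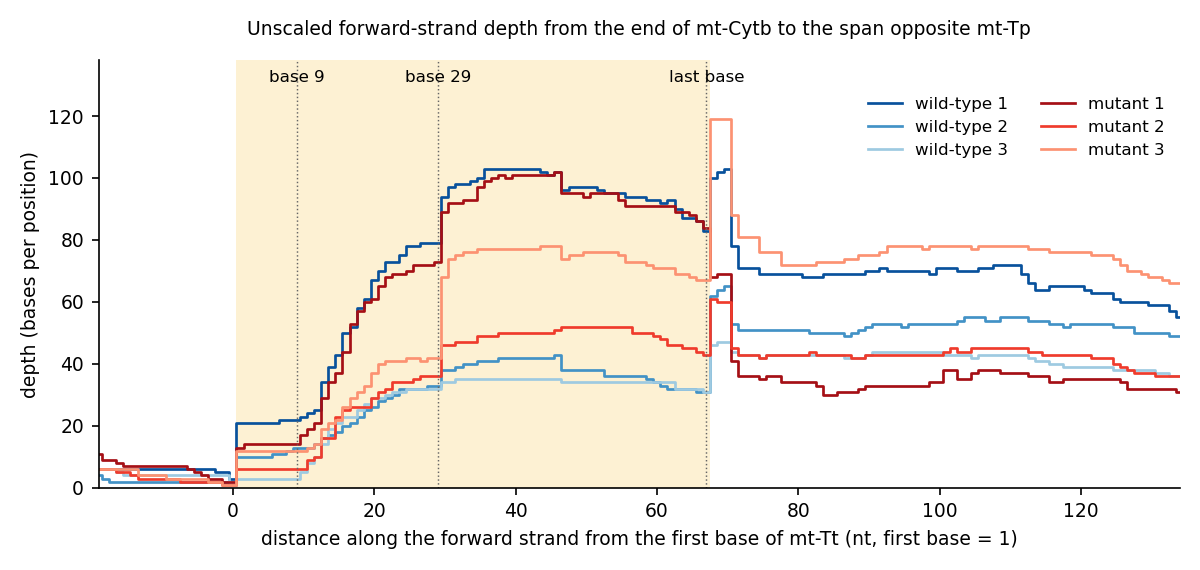
Unscaled forward-strand depth (vertical axis, bases per position) against distance in nt from the first base of mt-Tt, 1 line per library; yellow marks the gene, and dotted lines base 9, base 29 and the last base. In each library depth is nearly flat over bases 1 to 9, climbs to base 29, steps up at base 30, and is higher over the 3 bases after the gene than just beyond them; mutant replicate 1 is the library without a rise at the end of the gene.

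Most mt-Tt fragments thus lay away from the 5′ end. The depth of its first base was 16.0% of its highest depth, the next to lowest of 14 forward-strand tRNA genes. In mt-Tl2, a leucine tRNA, the first base was the highest, and in mt-Tm, the methionine tRNA, it had 97.0%. The last base of mt-Tt had 82.3% of the highest depth, ranking 4 of 14. Bases 1 to 20 held 13.3%, 15% and 12.8% of mt-Tt depth in wild-type libraries, against 11.7%, 10.9% and 10.3% in mutant libraries. Bases 46 to 67 held 40.9%, 38.6% and 40.8% against 42.4%, 44.5% and 45.0%. In both spans the genotypes did not overlap, with a mutant minus wild-type difference of -2.76 points in the first and 3.88 in the second (exact two-sided permutation p = 0.1 for each, adjusted over 4 shares 0.2). With 3 against 3 libraries neither could pass. As parts of 1 total, these shares are not separate results. How often they separate the genotypes in other tRNA genes was not computed. Bases 21 to 45 overlapped, at 46.2% ± 0.350 and 45.1% ± 0.727 (SD, n = 3, exact permutation p = 0.2).

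mt-Tt depth as a whole was not shown to differ between genotypes. Scaled, it was 72.9, 42.4 and 41.1 in wild-type libraries, against 44.5, 41.9 and 46.8 in mutant libraries. Wild-type replicate 1 stood above the other 5 libraries, which lay close together. The group values were 52.2 ± 18.0 and 44.4 ± 2.46 (SD, n = 3), a log2 change of -0.27 (SE 0.25, 95% interval -0.77 to 0.23, edgeR adjusted p = 0.460). Without wild-type replicate 1 the change was 0.08, and scaled to the tRNA genes it was 0.16. It was -0.57 scaled to the protein-coding genes, -0.68 by library totals and -0.95 scaled to the rRNA genes (edgeR adjusted p = 0.207, 0.128 and 0.0607). Of the 11 tested forward-strand tRNA genes, 9 had a log2 change below 0 and 1, mt-Tm, was called lower, with a median of -0.26. Over all 34 tested genes, 18 were below 0 and 2 were called, with a median of -0.03. Scaled to the tRNA genes, the median over all genes was 0.37. The genes most like mt-Tt over the 6 libraries were mt-Tg, the glycine tRNA (Pearson r = 0.743), mt-Tr, the arginine tRNA (0.715), and mt-Te (0.496), a looser likeness than that found for mt-Cytb.

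Position 9 of mitochondrial tRNAs is where MRPP1, a partner of MRPP3 in RNase P, methylates a purine, and the series names mismatch there as a readout. mt-Tt has A at base 9 (15297). Its depth there was 22, 13 and 3 in wild-type libraries, against 14, 6 and 12 in mutant libraries, too low for the test, which asked for 50 in each library. Only wild-type replicate 1 had mismatched bases, 2 of 22, both A9T (9.09%, exact 95% binomial interval 1.12% to 29.2%). The other libraries had 0. Their exact 95% binomial intervals reached up to 24.7% and 70.8% in wild-type replicates 2 and 3, and to 23.2%, 45.9% and 26.5% in mutant replicates 1, 2 and 3. Taking 3 bases as what a count of 0 allows, as a rule of thumb, gives 23.1% in wild-type replicate 2 and 21.4%, 50% and 25% in the mutant replicates. Over all libraries 2 of 70 bases were mismatched, 2.86% (exact interval 0.348% to 9.94%). No difference between genotypes was detectable (exact permutation p = 1).

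Depth at base 9 was 17.4% of the highest depth of mt-Tt, ranking 11 of 14 forward-strand tRNA genes, and it was on a par with that of base 1. Relative to the highest depth of bases 20 to 60 it was 21.4%, 30.2% and 8.57% in wild-type libraries, against 13.7%, 11.5% and 15.4% in mutant libraries. The groups overlapped (exact permutation p = 0.4). The difference of -6.50 points was -1.42 without wild-type replicate 2 and -12.2 without wild-type replicate 3. All binomial intervals and limits here hold for the error of counting alone, because reads copied by PCR need not stand for separate molecules.

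One site inside mt-Tt had a high mismatch, base 29 (15317), a C in the anticodon loop that is parted from the anticodon by 1 base. The mitochondrial threonine tRNA and a serine tRNA, mt-Ts1, are known to carry 3-methylcytidine at this place of the loop, added by METTL8. Mismatched bases numbered 15 of 79, 7 of 33 and 8 of 32 in wild-type libraries, against 11 of 73, 8 of 36 and 9 of 42 in mutant libraries. These are 19%, 21.2% and 25% against 15.1%, 22.2% and 21.4%, with overlap. The change was mostly C29T, counted from 1 at the 5′ end of mt-Tt, which made up 91.4% of the 58 mismatched bases. Over the 6 libraries the share was 19.7% (exact interval 15.3% to 24.7%).

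The group means at base 29 were 21.7% ± 3.04 and 19.6% ± 3.92 (SD, n = 3). The site did not reach a depth of 50 in each library. With a limit of 20, edgeR gave a log2 change in the odds of -0.21 (SE 0.35, 95% interval -0.97 to 0.56, adjusted p = 0.874). None of the 17 sites tested with that limit was called (0%), and none had an unadjusted p under 0.05. Other positions of mt-Tt reached at most 2.86%, the value at base 9. Base 29 is also the base before the step in depth, and whether the mismatch and the step are related was not tested. In mt-Ts1, which lies on the other strand, base 29 (6910) is C as well, and 37.7% to 54.0% of its bases were mismatched, 209 of 435 over all libraries. Its group means were 45.1% ± 8.24 and 46.3% ± 4.66 (SD, n = 3).

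Directly after mt-Tt the base calls split. Mitochondrial tRNAs receive CCA at the 3′ end after cutting, while the genome has tca at 15356 to 15358. At 15356, T68C, counted from the 5′ end of mt-Tt, was read in 34 of 100, 14 of 62 and 5 of 46 in wild-type libraries, against 35 of 68, 18 of 61 and 46 of 119 in mutant libraries. All other bases matched the genome, except 1 A in mutant replicate 1. The share was lowest in wild-type replicate 3 and highest in mutant replicate 1.

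Past the tca, depth fell away at the next base, by 25, 12 and 3 in wild-type libraries, against 28, 15 and 31 in mutant libraries. By the base after that it had fallen by 32, 14 and 4 against 33, 17 and 38. The fall was smaller than the count of C in each of the 6 libraries except wild-type replicate 2, where the later value equals it, and the libraries had the same order by both. Of the 22 tRNA genes, mt-Tt and mt-Ta, the alanine tRNA, are the 2 followed by tca. mt-Ta had C in 19 of 87 bases there (21.8%, exact interval 13.7% to 32.0%), and mt-Tt in 152 of 456 (33.3%, 29.0% to 37.9%). In the 17 tRNAs followed by neither C nor tca, the share of C had a median of 0%. Its highest value there was 9.62%, 5 of 52 bases, in mt-Tq, the glutamine tRNA. Whether the C comes from added CCA was not tested.

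The depth of the last base of mt-Tt was 83, 31 and 31 in wild-type libraries, against 84, 43 and 67 in mutant libraries. Of this depth, the count of C at the next base made 41%, 45.2% and 16.1% in wild-type libraries, against 41.7%, 41.9% and 68.7% in mutant libraries. The means were 34.1% ± 15.7 and 50.7% ± 15.5 (SD, n = 3), and the groups overlapped (exact two-sided permutation p = 0.4). The difference of 16.6 points was 7.67 without wild-type replicate 3 and 7.68 without mutant replicate 3. As a share of the bases at 15356 the mismatch was 22.5% ± 11.6 and 40.4% ± 11.8 (SD, n = 3, exact permutation p = 0.2). That difference of 17.9 points was 11.6 without mutant replicate 1. The share also depends on the bases there that match the genome, which numbered 66, 48 and 41 in wild-type libraries, against 32, 43 and 73 in mutant libraries.

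**Figure D5:**
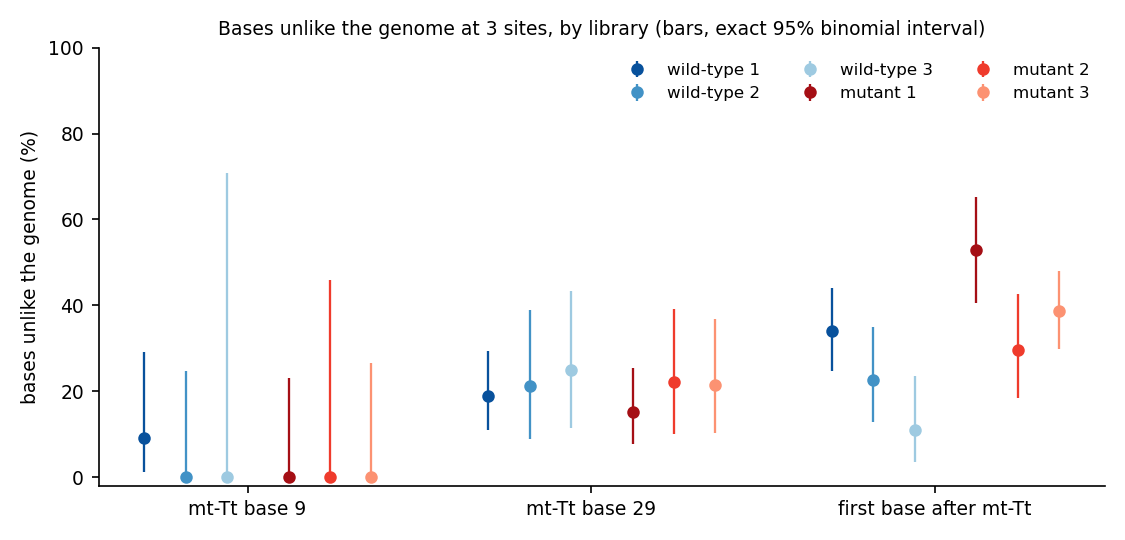
Percent of bases unlike the genome (vertical axis) at base 9 and base 29 of mt-Tt and at the first base after it, with 1 point per library and bars for the exact 95% binomial interval. At base 29 the libraries lie between 15.1% and 25%, and at the first base after mt-Tt between 10.9% and 52.9%.

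Forward-strand RNA was also read past mt-Tt. The span opposite mt-Tp had a mean depth of 68.8, 52.7 and 41.8 in wild-type libraries, against 35.9, 43.2 and 77.3 in mutant libraries. From the last base of mt-Tt to 15356, depth changed by 17, 31 and 15 in wild-type libraries, against -16, 18 and 52 in mutant libraries. On average this rise was larger than any inside mt-Tt. Whether the RNA over this span is continuous with mt-Tt was not tested. It also had a sharp end. Depth at 15423, the first base after mt-Tp, was 48, 45 and 32 against 28, 30 and 64. At the next base it was 7, 8 and 1 against 8, 3 and 7. In mutant replicate 1 and, by less, in wild-type replicate 1 this span had less depth than mt-Tt, and in the other 4 libraries more.

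The ratio of the 10 nt before the 3′ end of mt-Tt to the 10 nt after it was 1.12, 0.596 and 0.746 in wild-type libraries, against 1.93, 0.965 and 0.762 in mutant libraries. It overlapped between genotypes (log2 0.44, SE 0.43, 95% interval -0.62 to 1.5, edgeR adjusted p = 0.711). Mutant replicate 1 was the highest. Without it the log2 change was 0.035, and it was 0.25 without wild-type replicate 2, 0.74 without wild-type replicate 1 and 0.76 without mutant replicate 3.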

How the data were processed

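Per the labels' protocols, libraries came from islet RNA by the Illumina TruSeq small RNA method, so they hold short fragments rather than whole mRNAs. Trim Galore, cutadapt, FastQC and STAR with GRCm38.p6 are named in the submitters' processing notes. Read length, and whether reads matching nuclear mitochondrial DNA copies too were kept, is not stated in them. The deposited values are unscaled counts of each base per position and strand, per the file headers, and a position without an entry was taken as depth 0. A deposited table of position 9 counts, whose headings match no sample label, was not used. Small RNA reads overlap, so depth at neighbouring bases is not independent.

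Genes came from the GENCODE vM21 annotation. Any 2 libraries differed by more than counting noise (chi-square over genes of at least 3.24 for each degree of freedom). Mean depth per gene, per 50 nt window and per 10 nt flank was rounded and tested with edgeR 4.0.16 (R 4.3.3), quasi-likelihood, with a minimum mean of 10 and Benjamini-Hochberg adjustment over all genes, windows, boundaries or sites. Ratios and mismatches had an effect for each library. Shares were compared by exact permutation in scipy 1.17.1. Alternatives used DESeq2 1.42.0, limma 3.58.1 and other scalings, limits and windows. The models were also run on simulated counts drawn independently, unlike depths that share reads, and no result here rests on them.

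The 2 genes and the lists were chosen with earlier results of these data known. Named were peaks, called windows, sites of at least 5% mismatch and the 3 genes most like each member. The 3′ end, the steps in depth, the comparison of gene shapes, the stretch opposite mt-Cytb, mt-Ts1, the bases at the start codon and the test at base 29 were chosen after their values were seen.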

Additional observations from a re-analysis of the deposited data

How the results depend on the processing

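Over 17 results and 142 alternatives, 119 kept the direction and the side of the threshold, or for counts stayed within 1.5 times. For mt-Cytb depth (log2 0.42) the sign turned by library totals (-0.013) and scaled to rRNA (-0.28). The change passed scaled to tRNA (0.83, edgeR adjusted p = 0.0146), where 12 of 34 genes were called. Leaving out single libraries gave 0.14 to 0.61. For mt-Tt depth (-0.27) the sign turned scaled to tRNA (0.16) and by maximum depth (0.0034), and single libraries left out gave -0.44 to 0.084. The 4 called windows became 1 at 100 nt, 0 by library totals, 1 scaled to rRNA (lower in the mutant), 17 scaled to tRNA, 0 by DESeq2 and 0 to 8 without single libraries. Sites of these genes tested for mismatch were 0 at a minimum depth of 50 and 1 at 20. With single libraries left out, the share of bases 763 to 1144 of mt-Cytb differed by -1.12 to 1.37 points, base 9 mismatch by -4.55 to 0 points and base 29 mismatch by -3.53 to 0.0922 points. Split as bases 31 to 40, the middle of mt-Tt differed by 0.684 points instead of -1.12. The cause of these changes was not tested. The replicate numbers share only a label, since the mice differ (correlations of deviations -0.034, -0.248 and 0.231). With a replicate block mt-Cytb changed by 0.41, mt-Tt by -0.25 and the 3′ boundary of mt-Tt by 0.51, 4 windows were called, 0 of 34 genes passed, and base 29 changed by -0.24. Position 9 of mt-Tt was not tested at a minimum depth of 10 either, as wild-type replicate 3 had 3 bases there. Depth limits the boundaries of mt-Cytb, and base 9 of mt-Tt, which had 3 to 22 bases per library.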
